A study of Mus musculus with 6 samples.

Results

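Macrophage genes were examined in the abdominal aorta of mice that had lost *Prdm16*, a zinc-finger transcriptional regulator, in smooth muscle. The set held 32 genes of 55426 in the deposited expression table, matched by gene symbol, and all 32 symbols were found. It covered genes of the macrophage lineage and of macrophages in general, genes of tissue-resident macrophages, receptors of bacterial recognition and β2 integrins, Fc receptors with their signalling adaptors, the 3 chains of complement C1q, and genes that macrophages share with other leukocytes. Expression was compared between 3 *Prdm16*SMKO libraries and 3 control libraries, a comparison that asked how the loss of *Prdm16* in vascular smooth muscle cells (VSMCs) changed the wall of a vessel that had not been challenged. *Prdm16*SMKO mice carried *Prdm16* fl/fl and *Myh11*-CreERT2, a tamoxifen-dependent recombinase on the Y chromosome. The labels gave the other genotype only as control, and the study described these mice as wild-type and as *Myh11*-CreERT2. All mice were male and of the C57BL/6J strain, and the study called them adult. For its aneurysm experiments it gave 75 mg/kg/day tamoxifen by gavage on 5 consecutive days at 8 to 10 weeks of age and used the mice 2 weeks later, and no separate schedule was given for the sequenced mice. *Myh11* drives the recombinase in smooth muscle of all organs, so the macrophages of the wall were not its target.

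The libraries were made from polyadenylated RNA of whole abdominal aorta and sequenced as 151 bp read pairs, at an average of 40 M pairs. Levels were given as TPM, a unit of transcript abundance that corrects for transcript length and has the same total in every library. The labels did not say how many mice stood behind a library, so the p-values measure only the spread between these libraries. Library values below are given in the order of replicates 1, 2 and 3.

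Macrophages in a healthy artery lie mainly in the adventitia, and some lie in the intima. They depend on signalling through the colony-stimulating factor 1 receptor, on which survival rests, and on the transcription factor PU.1, which sets the lineage. Resident macrophages take up apoptotic cells, lipoproteins and debris, they secrete complement C1q and lysozyme, and part of them carry the hyaluronan receptor LYVE1, the folate receptor β and the mannose receptor. In RNA of a whole vessel, fewer or more macrophages cannot be told apart from less or more RNA of these genes in each macrophage.

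Most macrophage genes had a higher mean in the *Prdm16*SMKO libraries, but no single one of them passed the test. Of the 31 members above the expression minimum of a mean of 0.5 TPM, 30 had a higher mean log2 level in *Prdm16*SMKO than in control, whereas 54.2% of all 15775 genes tested did. The median log2 fold change of the members was 0.70, and that of all genes was 0.02. The number of members with an adjusted p under 0.05 was 0 of 31 (limma, Benjamini-Hochberg adjustment over all genes), while 56 of the 15775 genes, or 0.355%, passed it, 29 higher (0.184%) and 27 lower. At an unadjusted p under 0.05, 16 of 31 members (51.6%) were higher and 0 were lower, against 8.74% of all genes in either direction and 4.88% that were higher. Every *Prdm16*SMKO library exceeded every control library for 13 of the 31 members tested (41.9%), against 7.02% of all genes, and the reverse order held for 0 members and 5.76% of all genes. A log2 fold change of at least 0.5 was seen for 24 of 31, against 10.8% of all genes. Of the 31 members, 2 (*Trem2* and *Timd4*) had a control mean under 0.5 TPM and passed the minimum only through the *Prdm16*SMKO group. The members varied together between libraries and were chosen with earlier results of these data known. The counts above are therefore not counts of independent genes, and the members were not tested as a set.

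The summed level of the 32 members was 218, 175 and 133 TPM in the control libraries and 222, 410 and 291 TPM in the *Prdm16*SMKO libraries. The groups did not overlap, but the lowest *Prdm16*SMKO library lay only slightly above the highest control library. A few abundant genes made up much of this sum. Over the 6 libraries the share was 16.9% to 23.1% for *Lyz2*, 27.7% to 36.1% for the C1q chains and 4.12% to 9.33% for *Pf4*. *Prdm16*SMKO replicate 2 held the highest value for 29 of the 32 members and exceeded all controls for 32. *Prdm16*SMKO replicate 3 exceeded all controls for 25 members, and *Prdm16*SMKO replicate 1 for 15, with 16 members inside the control range. Control replicate 3 was the lowest library for 20 members. Without *Prdm16*SMKO replicate 2, 28 of 29 members were higher, and 2 of 29 had an unadjusted p under 0.05 (7.33% of all genes, in either direction). Without control replicate 3, 4 of 31 had one (8.68% of all genes), without control replicate 2, 7 of 31 (7.48%), and without *Prdm16*SMKO replicate 1, 25 of 31 (9.09%). With both *Prdm16*SMKO replicate 2 and control replicate 3 left out, an alternative chosen after seeing the data, 25 of 28 members were higher, 2 had an unadjusted p under 0.05, when 8.08% of all genes did, and the median log2 fold change was 0.32.

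**Figure D1:**
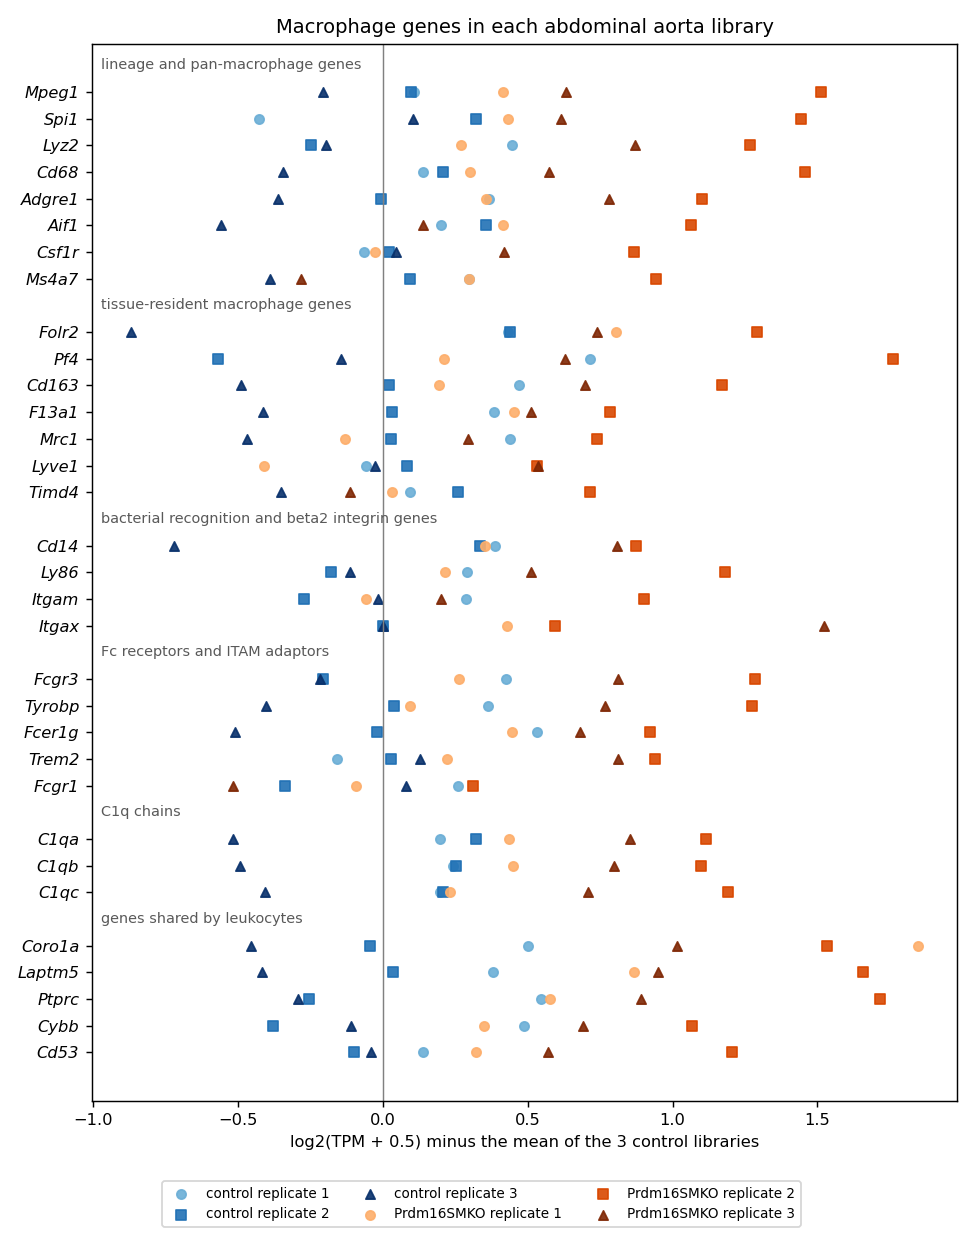
Each row is a member and each point a library, as log2(TPM + 0.5) minus the mean of the 3 control libraries; blue symbols are control and orange to brown symbols *Prdm16*SMKO, with a circle, a square and a triangle for replicates 1, 2 and 3. *Prdm16*SMKO replicate 2 (orange square) lies farthest to the right in 29 of 32 rows, and control replicate 3 (dark blue triangle) farthest to the left in 20.

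The targeted gene was lower in the *Prdm16*SMKO libraries. *Prdm16* (chromosome 4: 154316125-154636873, GRCm38) stood at 33.4, 36.8 and 30.8 TPM in control and at 20.8, 27.7 and 14.8 TPM in *Prdm16*SMKO. The groups did not overlap, with a log2 fold change of -0.70 ± 0.23 (SE) and a limma adjusted p of 0.376. *Prdm16*SMKO replicate 2, in which the macrophage genes were highest, held the highest *Prdm16* level of its group.

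Among genes of the lineage, *Csf1r* encodes the receptor through which macrophages receive their survival signal, and *Spi1* encodes PU.1. *Spi1* was at 1.34, 2.59 and 2.16 TPM in control and at 2.84, 6.23 and 3.29 TPM in *Prdm16*SMKO. The 2 groups did not overlap, and the log2 fold change was 0.83 (95% interval 0.10 to 1.57, limma adjusted p = 0.496). *Csf1r* was at 6.86, 7.33 and 7.45 TPM in control, the smallest spread over its mean among the controls of the 31 members tested. In *Prdm16*SMKO it was at 7.06, 13.6 and 9.81 TPM, and the first of these lay inside the control range. Its log2 fold change was 0.42 (95% interval -0.11 to 0.95), less than the median of the members.

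The pan-macrophage genes include the markers most used to count macrophages in tissue. *Cd68* (ENSMUSG00000018774, chromosome 11: 69664213-69666153) encodes a glycoprotein of late endosomes and lysosomes, and *Adgre1* (ENSMUSG00000004730) encodes the F4/80 antigen of mouse macrophages. *Cd68* was at 3.02, 3.19 and 2.02 TPM in control (2.74 ± 0.63, SD, n = 3) and at 3.44, 8.29 and 4.26 TPM in *Prdm16*SMKO (5.33 ± 2.60, SD, n = 3). Every *Prdm16*SMKO library was above every control library, by 1.94-fold on the means, with a log2 fold change of 0.78 (95% interval 0.05 to 1.503, limma adjusted p = 0.534). *Adgre1* was at 1.87, 1.33 and 0.93 TPM in control and at 1.85, 3.44 and 2.66 TPM in *Prdm16*SMKO. Its groups overlapped through *Prdm16*SMKO replicate 1, which fell just below control replicate 1. The log2 fold change was 0.75 (95% interval 0.07 to 1.43, limma adjusted p = 0.516). The exact permutation test, two-sided, gave p = 0.1 for *Cd68* and p = 0.2 for *Adgre1*, and 0.1 is the smallest p that 3 libraries against 3 can give.

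*Lyz2*, which encodes the lysozyme of macrophages and neutrophils, was the most abundant member. It was at 48.1, 29.6 and 30.7 TPM in control and at 42.6, 85.5 and 64.8 TPM in *Prdm16*SMKO, so that *Prdm16*SMKO replicate 1 lay inside the control range. The log2 fold change was 0.80 (95% interval 0.17 to 1.44). *Lyz2* has a near-identical neighbour, *Lyz1*, and how reads shared by the pair were divided was not given, so its level is uncertain to that extent. *Mpeg1*, which encodes the pore-forming protein perforin-2, was at 1.19, 1.18 and 0.86 TPM in control and at 1.59, 3.98 and 1.93 TPM in *Prdm16*SMKO, with no overlap and a log2 fold change of 0.85 (95% interval 0.10 to 1.605). *Aif1*, the gene of the actin-binding protein IBA1, had a log2 fold change of 0.54 with overlap. *Ms4a7*, a membrane gene of mature macrophages, was at 0.95, 0.76 and 0.40 TPM in control and 0.95, 1.77 and 0.47 TPM in *Prdm16*SMKO, among the smallest differences of the set (log2 fold change 0.32, 95% interval -0.58 to 1.22). Over all 8 genes of this group the median log2 fold change was 0.76. Of these, 3 were higher without overlap, against 7.02% of all genes.

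**Figure D2:**
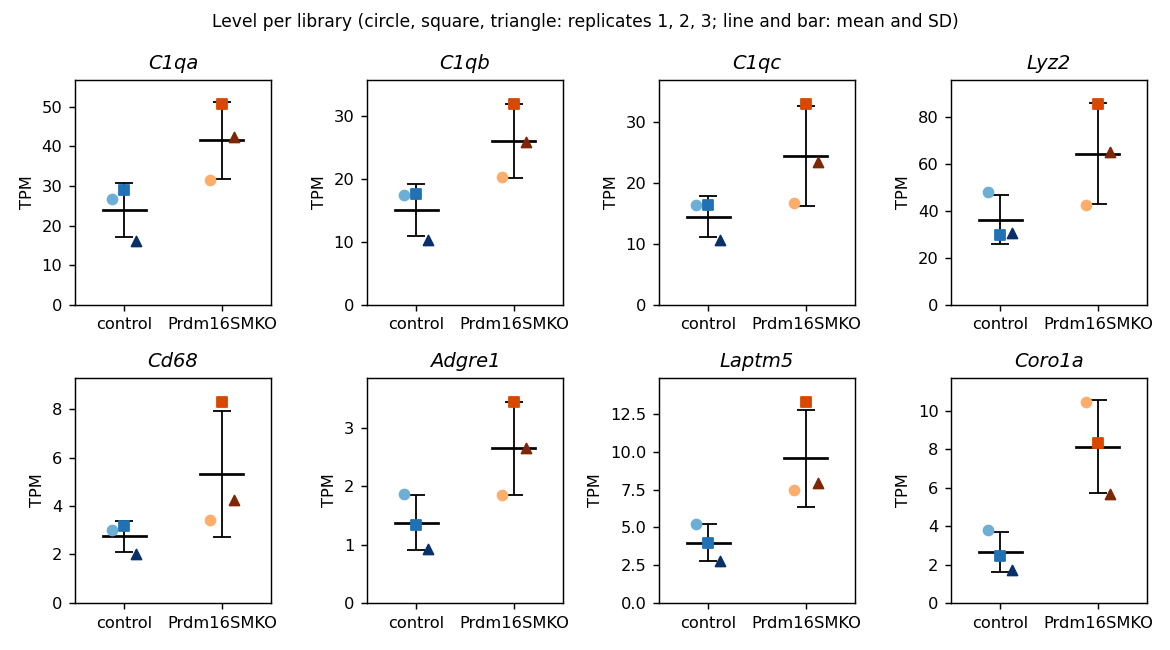
Level in TPM (vertical axis from 0) of 8 members in each library, with circles, squares and triangles for replicates 1, 2 and 3, a line at the group mean and a bar of 1 SD on either side (n = 3). The 2 groups do not overlap for *C1qa*, *C1qb*, *C1qc*, *Cd68*, *Laptm5* and *Coro1a*, whereas for *Lyz2* and *Adgre1* *Prdm16*SMKO replicate 1 lies inside the control range.

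The tissue-resident genes had a median log2 fold change of 0.58 over 7 genes, from 0.21 to 0.94. *Folr2*, the gene of folate receptor β, was at 4.40, 4.42 and 1.49 TPM in control and at 5.85, 8.39 and 5.56 TPM in *Prdm16*SMKO. It had no overlap and a log2 fold change of 0.94 (95% interval 0.13 to 1.76), with control replicate 3 far below its group. *F13a1*, which encodes the A subunit of coagulation factor XIII, was at 8.57, 6.61 and 4.72 TPM in control and at 9.03, 11.5 and 9.42 TPM in *Prdm16*SMKO, with no overlap and a log2 fold change of 0.58 (95% interval 0.06 to 1.11). *Pf4*, which encodes a chemokine shared with platelets, was at 18.3, 7.21 and 9.86 TPM in control and at 12.8, 38.3 and 17.2 TPM in *Prdm16*SMKO. Its log2 fold change of 0.87 was the fifth largest of the set, but its groups overlapped and its 95% interval ran from -0.11 to 1.84.

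The smallest differences among the resident genes were those of *Mrc1*, *Lyve1* and *Timd4*. *Mrc1*, the gene of the mannose receptor, was at 5.69, 4.16 and 2.80 TPM in control and at 3.67, 7.13 and 5.10 TPM in *Prdm16*SMKO. *Lyve1* was at 4.28, 4.77 and 4.38 TPM in control and at 3.24, 6.69 and 6.71 TPM in *Prdm16*SMKO. *Timd4*, which encodes a receptor for phosphatidylserine on apoptotic cells, was at 0.48, 0.60 and 0.22 TPM in control and at 0.44, 1.01 and 0.35 TPM in *Prdm16*SMKO. For each of these genes at least 1 *Prdm16*SMKO library lay inside or below the control range. The log2 fold changes were 0.30 for *Mrc1* (95% interval -0.38 to 0.98), 0.22 for *Lyve1* (-0.40 to 0.84) and 0.21 for *Timd4* (-0.68 to 1.10), intervals that hold both 0 and the median of the members. *Lyve1* is also a gene of lymphatic endothelium. *Cd163*, the receptor for haptoglobin and haemoglobin complexes, had a log2 fold change of 0.69 with overlapping groups.

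Of the genes of bacterial recognition and β2 integrins, *Cd14*, *Ly86* and *Itgam* had log2 fold changes of 0.68, 0.64 and 0.35, and the groups of each overlapped. *Cd14* encodes the coreceptor for bacterial lipopolysaccharide, *Ly86* the MD-1 protein that pairs with RP105, and *Itgam* the integrin αM subunit CD11b. *Itgax*, the gene of the integrin αX subunit CD11c, was the 1 member below the expression minimum and was not tested. It was listed at 0.05 TPM in each of the 3 control libraries and at 0.24, 0.33 and 1.08 TPM in the *Prdm16*SMKO libraries, with no overlap. With *Itgax* counted, 14 of 32 members did not overlap between the groups. The share of 7.02% of all genes covers only genes above the minimum, and no share was computed with the genes below it.

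The Fc receptors and the adaptors with an immunoreceptor tyrosine-based activation motif (ITAM) had a median log2 fold change of 0.68. *Tyrobp* (DAP12) and *Fcer1g* (the common Fc receptor γ chain) carry the signal of many myeloid receptors, and their log2 fold changes were 0.71 and 0.68, close to that of *Fcgr3*, a low-affinity IgG receptor, at 0.79. In all 3 of these genes *Prdm16*SMKO replicate 1 lay inside the control range. *Trem2*, a lipid-sensing receptor that signals through DAP12, was at 0.23, 0.33 and 0.39 TPM in control and at 0.45, 1.06 and 0.93 TPM in *Prdm16*SMKO. The groups did not overlap, although at this low level the 95% interval of its log2 fold change of 0.66 included 0 (-0.16 to 1.48). With a mean of 0.32 TPM in control, *Trem2* passed the expression minimum only through its higher group. It was nonetheless counted among the 13 tested members without overlap. *Fcgr1*, the high-affinity IgG receptor CD64, was the 1 member with a lower mean in *Prdm16*SMKO. It was at 0.80, 0.36 and 0.65 TPM in control and at 0.52, 0.85 and 0.26 TPM in *Prdm16*SMKO, with a log2 fold change of -0.10 (95% interval -0.96 to 0.76).

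The 3 C1q chains had similar log2 fold changes, from 0.71 to 0.80. *C1qa*, *C1qb* and *C1qc* encode the A, B and C chains that together form C1q, the recognition molecule of the classical complement pathway, and tissue macrophages are its main source. They lie side by side within 18.7 kb on the minus strand of chromosome 4 (136880129-136898803, GRCm38). *C1qa* (ENSMUSG00000036887) was at 26.7, 29.1 and 16.1 TPM in control (23.9 ± 6.93, SD, n = 3) and at 31.5, 50.8 and 42.3 TPM in *Prdm16*SMKO (41.5 ± 9.66, SD, n = 3). *C1qb* (ENSMUSG00000036905) was at 17.4, 17.5 and 10.2 TPM in control and at 20.2, 31.9 and 25.8 TPM in *Prdm16*SMKO. *C1qc* (ENSMUSG00000036896) was at 16.3, 16.5 and 10.6 TPM in control and at 16.7, 33.0 and 23.5 TPM in *Prdm16*SMKO. In all 3 chains control replicate 3 was lowest and *Prdm16*SMKO replicate 2 highest, as in many other members. The groups overlapped for none of the 3, and 7.02% of all genes were higher without overlap. The log2 fold changes were 0.80 for *C1qa* (95% interval 0.21 to 1.39), 0.78 for *C1qb* (0.21 to 1.35) and 0.71 for *C1qc* (0.09 to 1.33), with limma adjusted p-values of 0.386, 0.380 and 0.487. The level of *C1qa* over that of *C1qb* stayed between 1.54 and 1.66 in the 6 libraries, and that of *C1qc* over *C1qb* between 0.83 and 1.04. The sum of the 3 chains ranged from 36.9 to 116 TPM.

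The genes shared by leukocytes differed most, with a median log2 fold change of 1.06 over 5 genes. *Coro1a* (ENSMUSG00000030707, chromosome 7: 126699773-126707787), the gene of the actin-binding protein coronin 1A, was at 3.81, 2.45 and 1.72 TPM in control (2.66 ± 1.06, SD, n = 3). In *Prdm16*SMKO it was at 10.5, 8.32 and 5.66 TPM (8.15 ± 2.41, SD, n = 3). It was 3.06-fold higher on the means, with a log2 fold change of 1.47 ± 0.30 (SE, 95% interval 0.78 to 2.15) and the lowest limma adjusted p of the set, 0.106. *Coro1a* was also the 1 member whose highest library was *Prdm16*SMKO replicate 1.

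*Laptm5* (ENSMUSG00000028581, chromosome 4: 130913125-130936141) encodes a lysosomal membrane protein of blood cells. It was at 5.19, 3.98 and 2.77 TPM in control and at 7.47, 13.3 and 7.93 TPM in *Prdm16*SMKO, with a log2 fold change of 1.16 ± 0.28 (SE, 95% interval 0.52 to 1.80) and a limma adjusted p of 0.192. *Ptprc*, the gene of CD45, was at 1.47, 0.63 and 0.60 TPM in control and at 1.51, 3.93 and 2.0 TPM in *Prdm16*SMKO, where the lowest library was nearly level with the highest control. Its log2 fold change was 1.06 (95% interval 0.20 to 1.92, limma adjusted p = 0.449). *Cd53*, a leukocyte tetraspanin, was at 1.48, 1.18 and 1.25 TPM in control and at 1.75, 3.65 and 2.17 TPM in *Prdm16*SMKO, with a log2 fold change of 0.70 (95% interval 0.04 to 1.36). *Cybb*, the catalytic subunit of the phagocyte NADPH oxidase, had a log2 fold change of 0.70 with overlapping groups.

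**Figure D3:**
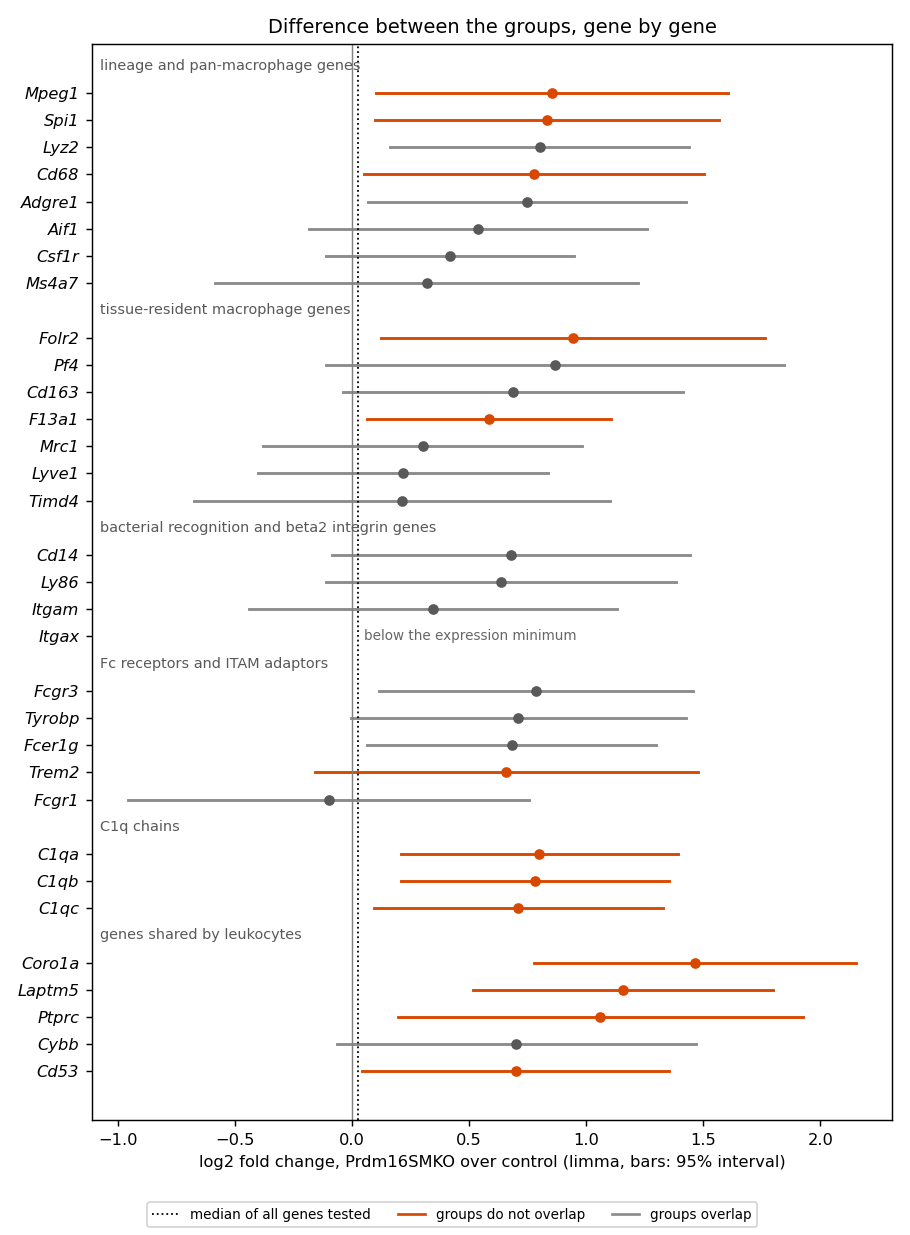
Log2 fold change of *Prdm16*SMKO over control for each member (points, limma) with its 95% interval (bars), by role; orange marks members whose groups do not overlap, and the dotted line is the median of all genes tested at 0.02. Points run from -0.10 for *Fcgr1* to 1.47 for *Coro1a*, and 16 of 31 intervals lie wholly above 0.

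The C1q genes lie 17.4 Mb from *Prdm16* and *Laptm5* lies 23.4 Mb from it on the same chromosome. Within 15 Mb of *Prdm16*, 55 of 195 genes tested (28.2%) had an unadjusted p under 0.05. Between 15 and 25 Mb, with the 4 members left out, the share was 11 of 151 (7.28%), and on the other chromosomes it was 8.53%.

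Promoters are shown because PU.1, the product of *Spi1*, is known to bind sites with the core GAGGAA. RefSeq promoters (GRCm38.p6) were matched by symbol for 25 of the 32 members, with 31 start sites, and *Spi1*, *C1qa*, *Adgre1*, *Tyrobp*, *Cd14*, *Csf1r* and *Lyve1* had no entry in the table. Over both strands, GAGGAA was found in 15 of the 31 windows of 250 bases before a start and in 23.3% of all 32851 promoter windows of that length. The longer forms GAGGAAG and GAGGAAGT, which contain it, were found in 10 and 2 of 31 (10.6% and 2.44% of all windows). AGGAAGT, which overlaps them, was found in 10 of 31 (7.69%), and the octamer-like letters TTTGCAT in 1 of 31 (4.12%). Of all 25 members with an entry, 14 held GAGGAA in at least 1 window. Of the 14 members whose groups did not overlap, 12 had an entry, and 8 of these held GAGGAA in at least 1 window, whereas *Coro1a*, *Folr2*, *Mpeg1* and *Itgax* held it in none. The 23.3% of all promoters is a share of windows, and no share per gene was computed.

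For 6 of those 12 members, a RefSeq window lay wholly outside the gene as GENCODE M21 places it, and these 6 windows are printed 5′ to 3′ on the strand of the gene, with GAGGAA or its reverse complement TTCCTC in capitals. They are *C1qb* at chr4:136886201-136886450, *Cd53* at chr3:106790150-106790399, *Cd68* at chr11:69666171-69666420 and *F13a1* at chr13:37050245-37050494 on the minus strand, and *Mpeg1* at chr19:12460520-12460769 and *Trem2* at chr17:48346151-48346400 on the plus strand. Each held 1 match apart from *Mpeg1*, which held 0, and a match is one of letters, not a measured site. For the other 6, which include *Laptm5* and *C1qc*, the windows reached into the gene, because the RefSeq start lay inside the GENCODE gene.
*C1qb*: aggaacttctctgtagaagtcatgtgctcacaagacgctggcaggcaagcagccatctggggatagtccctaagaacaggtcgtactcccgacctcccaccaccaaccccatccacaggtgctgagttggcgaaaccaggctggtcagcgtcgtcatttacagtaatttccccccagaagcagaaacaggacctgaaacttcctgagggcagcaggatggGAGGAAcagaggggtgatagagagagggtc
*Cd53*: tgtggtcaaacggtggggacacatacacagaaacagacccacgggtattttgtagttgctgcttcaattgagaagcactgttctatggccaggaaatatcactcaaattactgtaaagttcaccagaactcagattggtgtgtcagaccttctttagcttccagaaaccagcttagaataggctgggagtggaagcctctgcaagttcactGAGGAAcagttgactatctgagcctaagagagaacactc
*Cd68*: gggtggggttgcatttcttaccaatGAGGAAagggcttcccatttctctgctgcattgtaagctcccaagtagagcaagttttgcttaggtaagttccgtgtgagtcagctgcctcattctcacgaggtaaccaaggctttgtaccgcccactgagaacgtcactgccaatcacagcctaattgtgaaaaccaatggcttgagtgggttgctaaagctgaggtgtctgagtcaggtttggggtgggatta
*F13a1*: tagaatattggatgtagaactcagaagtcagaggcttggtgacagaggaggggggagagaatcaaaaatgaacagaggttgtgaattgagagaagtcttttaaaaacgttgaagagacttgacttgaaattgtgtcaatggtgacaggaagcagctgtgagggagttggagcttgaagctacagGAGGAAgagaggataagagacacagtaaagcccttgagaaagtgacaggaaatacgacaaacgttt
*Mpeg1*: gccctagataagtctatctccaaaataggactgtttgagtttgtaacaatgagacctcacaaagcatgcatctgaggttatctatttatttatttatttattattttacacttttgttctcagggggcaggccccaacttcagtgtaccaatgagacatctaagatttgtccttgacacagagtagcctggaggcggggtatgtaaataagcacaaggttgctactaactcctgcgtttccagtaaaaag
*Trem2*: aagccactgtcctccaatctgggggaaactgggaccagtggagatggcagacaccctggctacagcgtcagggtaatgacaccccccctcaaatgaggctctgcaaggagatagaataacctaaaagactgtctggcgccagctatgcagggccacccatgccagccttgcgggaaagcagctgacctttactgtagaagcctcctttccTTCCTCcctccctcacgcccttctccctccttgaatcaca

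Genes that act with the members were read from the same fit, in which 54.2% of all genes tested were higher in *Prdm16*SMKO. Of the 16 tested genes for recruitment and survival of macrophages, 13 were higher in *Prdm16*SMKO (median log2 fold change 0.62). Of these, 4 had an unadjusted p under 0.05, while 4.88% of all genes were higher at that p, and 0 passed the adjusted threshold. *Cd74*, the invariant chain and receptor for MIF, was at 35.9 ± 8.33 TPM in control and 93.7 ± 30.03 TPM in *Prdm16*SMKO (SD, n = 3; log2 fold change 1.35, limma adjusted p = 0.0906). *Ccl12*, a monocyte chemokine, and *Ccr2*, its receptor, had log2 fold changes of 1.74 and 1.01. *Ccl12* was at 1.0, 0 and 0 TPM in control and at 1.01, 2.69 and 2.43 TPM in *Prdm16*SMKO, and *Ccr2* at 0.57, 0.45 and 0.26 TPM and at 0.69, 1.68 and 1.92 TPM. Both are among the 6 genes of this list that passed the expression minimum only through the *Prdm16*SMKO group. *Csf1*, the ligand of the product of *Csf1r*, had a log2 fold change of 0.07. *Ccl2* lay below the expression minimum.

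Of 23 signalling partners of phagocytes, 19 were higher (median 0.41), against 54.2% of all genes. *Syk*, *Itgb2* and *Clec7a* had the smallest p-values, with log2 fold changes of 0.76, 0.96 and 1.14. Of these 23 genes, 2 passed the minimum only through *Prdm16*SMKO. They were *Clec7a*, at a mean of 0.41 TPM in control and 1.57 TPM in *Prdm16*SMKO, and *Was*, at 0.26 and 0.90 TPM. *Syk* encodes the kinase recruited by ITAM adaptors, *Itgb2* the β2 subunit that pairs with the products of *Itgam* and *Itgax*, and *Clec7a* the β-glucan receptor dectin-1. All 11 other macrophage transcription factors tested were higher (median 0.44). The smallest p-values of that list were those of *Bhlhe41*, *Irf5* and *Ikzf1*, at log2 fold changes of 0.63, 0.71 and 0.82, and *Ikzf1* passed the minimum only through *Prdm16*SMKO (mean 0.38 TPM in control and 1.08 TPM in *Prdm16*SMKO). The largest log2 fold change was that of *Cebpa*, 0.96, with overlapping groups. It was at 29.8, 15.8 and 11.4 TPM in control and at 21.5, 23.1 and 82.4 TPM in *Prdm16*SMKO. Its highest library was *Prdm16*SMKO replicate 3, as for the summed adipocyte genes, and not replicate 2. The part of adipocytes or of macrophages in the level of *Cebpa* was not tested. No gene of these lists passed the adjusted threshold.

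Antigen presentation genes of the MHC class II pathway, which macrophages, dendritic cells and B cells use, were higher for all 8 genes tested (median 0.96). Of these, 5 had an unadjusted p under 0.05, while 4.88% of all genes were higher at that p. *Cd74* was counted both here and among the genes for recruitment and survival. *H2-Ab1* was at 17.99 ± 3.42 TPM in control and 49.7 ± 19.9 TPM in *Prdm16*SMKO (SD, n = 3; log2 fold change 1.38, limma adjusted p = 0.1102), and *H2-Aa* had a log2 fold change of 1.36. Over *Csf1r*, *H2-Aa* was at 3.26, 2.71 and 1.52 in control and at 4.49, 4.64 and 4.56 in *Prdm16*SMKO. *Csf1r* was named after its values were seen, and its log2 fold change of 0.42 lay below the members' median of 0.70. The member *Laptm5* over *Csf1r* was likewise at 0.76, 0.54 and 0.37 in control and at 1.06, 0.98 and 0.81 in *Prdm16*SMKO, whereas *C1qa* over *Csf1r* overlapped. The ratio of *H2-Aa* to other members was not computed, and a level per macrophage was not measured.

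Other resident and scavenger genes went both ways, with 11 higher and 4 lower of 15 (median 0.41). *Ccl24*, a chemokine of alternatively activated macrophages, and *Stab1*, a scavenger receptor, had log2 fold changes of 1.28 and 0.79. *Cbr2*, a carbonyl reductase that is also expressed outside macrophages, was at 337 ± 73.5 TPM in control and 187 ± 52.5 TPM in *Prdm16*SMKO (SD, n = 3; log2 fold change -0.86, limma adjusted p = 0.268). Of 18 lipid and lysosomal genes 13 were higher, with a median of 0.25. *Apoe*, which many cells of the wall make, was at 477 ± 86.6 and 918 ± 58.3 TPM (SD, n = 3; log2 fold change 0.96, limma adjusted p = 0.0731), *Ctss*, the lysosomal protease cathepsin S, had a log2 fold change of 1.23 (limma adjusted p = 0.118), and *Abcg1*, a cholesterol exporter, had one of 0.60.

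Among genes of inflammatory activation 9 of 22 were above the expression minimum, 6 higher and 3 lower, and *Il1a* was listed at 0 in all 6 libraries. *Ccl5* and *Cxcl10*, chemokines for T cells and monocytes, had log2 fold changes of 2.01 and 1.16 with limma adjusted p-values of 0.153 and 0.319. Both passed the minimum only through *Prdm16*SMKO, with control means of 0.19 and 0.29 TPM, and *Ccl5* was listed at 0 in part of the controls. *Ptgs2*, the gene of cyclooxygenase 2, fell, from 5.18 ± 0.55 TPM in control to 1.65 ± 0.42 TPM in *Prdm16*SMKO (SD, n = 3), with a log2 fold change of -1.41 and a limma adjusted p of 0.0468. Its call was lost when any 1 of the 6 libraries was left out, at limma adjusted p-values from 0.0690 to 0.190. It was called under 8 of 20 settings, and was lost also with a pseudocount of 1 (limma adjusted p = 0.0506), a minimum mean of 2 TPM (0.0535), no minimum (0.187), no variance trend (0.0630) and the replicate block (0.164).

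Of the monocyte list 9 genes were tested, 5 higher and 4 lower, with a median log2 fold change of 0.04. *Spn*, *Plac8* and *Ccr2* were higher without overlap, as 7.02% of all genes were, at log2 fold changes of 1.22, 1.18 and 1.01. Of these, *Spn* and *Ccr2* passed the minimum only through *Prdm16*SMKO. As many genes of the list, *Nr4a1*, *Fn1* and *Vcan*, were lower without overlap, as 5.76% of all genes were, with log2 fold changes of -0.74 for *Fn1* and -0.65 for *Vcan*. *Ly6c2* had a log2 fold change of 0.04 with overlapping groups. In this list *Nr4a1*, a nuclear receptor that non-classical monocytes need and that other cells induce as an immediate-early gene, fell from 149 ± 32.5 to 27.4 ± 8.31 TPM (SD, n = 3; log2 fold change -2.45, limma adjusted p = 0.0076). It was called under 17 of 20 settings. Its limma adjusted p was 0.0579 with no expression minimum, 0.0741 without control replicate 2 and 0.149 with both *Prdm16*SMKO replicate 2 and control replicate 3 left out.

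Marker lists of other cell types varied between the same libraries. The summed level of 7 erythroid genes was 3168, 1143 and 1329 TPM in control and 4947, 19570 and 2191 TPM in *Prdm16*SMKO, highest in the same *Prdm16*SMKO replicate 2 as the members. The 10 adipocyte genes, all of which had a higher mean in *Prdm16*SMKO, summed to 577 to 1404 TPM in control and 972 to 3537 TPM in *Prdm16*SMKO, with the top value in replicate 3. The 10 endothelial genes, 9 of them higher (median log2 fold change 0.35), summed to 272 to 354 TPM in control and to 331, 568 and 373 TPM in *Prdm16*SMKO. The 10 adventitial fibroblast genes (median 0.08) summed to 2354 to 2660 TPM in control and to 2010, 3602 and 2625 TPM in *Prdm16*SMKO, and both lists were highest in replicate 2. The 10 VSMC genes summed to 18160 to 29901 TPM in control and 14331 to 22147 TPM in *Prdm16*SMKO, and *Acta2*, *Myh11* and *Tagln* among them define the muscle layer of an artery. The part of these differences in the levels of the macrophage genes was not tested.

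Among other leukocytes, the summed level of 15 T and NK cell genes was 11.8 to 16.1 TPM in control and 15.3 to 30.9 TPM in *Prdm16*SMKO, with its top value in *Prdm16*SMKO replicate 1, where *Coro1a* was highest too. Most of that sum was *Thy1*, which other cells of the wall also express. The other 14 genes summed to 4.87, 1.77 and 1.55 TPM in control and to 9.30, 7.46 and 8.0 TPM in *Prdm16*SMKO, with no overlap. *Thy1* was set apart after the values were seen, and most of these 14 genes lay below the expression minimum. The log2 fold changes of the 5 tested genes of the list were above 0, at a median of 0.80, and 2 of them passed the minimum only through *Prdm16*SMKO. T and NK cells also express *Coro1a*, *Ptprc*, *Laptm5* and *Cd53*. The 10 B cell genes summed to 3.69 to 12.96 TPM in control and 11.5 to 19.7 TPM in *Prdm16*SMKO, with the top in replicate 2, and the 9 dendritic cell genes to 6.76 to 11.1 and 10.6 to 12.7 TPM. Their part in the levels of the members was not tested. The 12 neutrophil genes summed to 2.14 to 2.21 TPM in control and 2.09 to 8.52 TPM in *Prdm16*SMKO, with the top in replicate 2. *Ly6g* and *Mpo* were listed at 0 in all 6 libraries. The 2 genes tested, *S100a9* and *Mmp9*, were higher on the means, at log2 fold changes of 1.36 and 0.22 with overlapping groups. *S100a9* was at 0.36, 0 and 0.83 TPM in control and at 1.84, 3.01 and 0.67 TPM in *Prdm16*SMKO. It passed the minimum only through *Prdm16*SMKO. The part of neutrophils in the levels of the members was not tested.

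**Figure D4:**
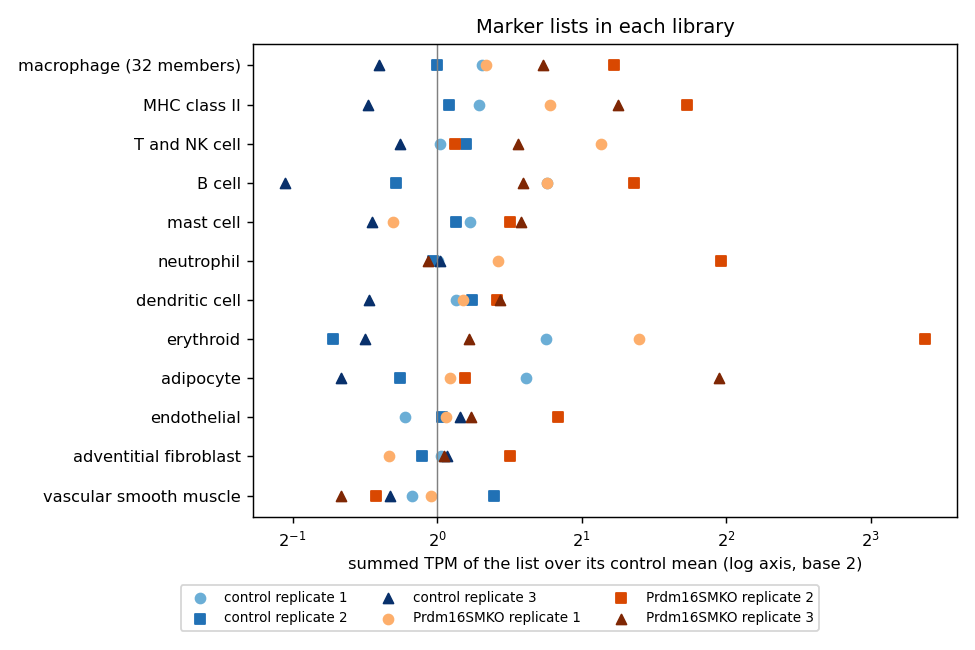
Summed TPM of each marker list in each library, divided by its mean over the 3 control libraries (log axis, base 2), with the symbols of the libraries as in the plot by member. The macrophage members are highest in *Prdm16*SMKO replicate 2, as the MHC class II, B cell, neutrophil, erythroid, endothelial and adventitial fibroblast lists are, and the T and NK cell list is highest in *Prdm16*SMKO replicate 1.

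The composition of the libraries also varied. Mitochondrial transcripts took 15.8% to 27.4% of the TPM total, and transcripts of the ribosomal RNA locus 15.6% to 31.4%, with neither separating the groups. Since TPM sum to the same total, these shares set the scale of all other genes. Rescaling the libraries without both gave a median log2 fold change of 0.79 for the members and 0.04 for all genes, and 0 members passed the adjusted threshold.

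**Figure D5:**
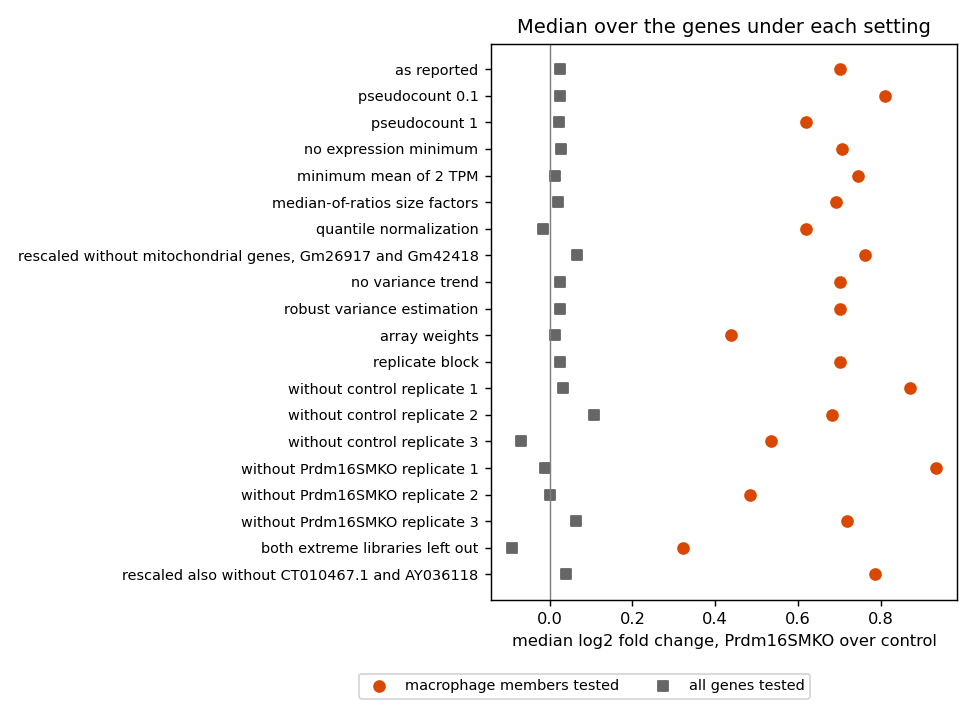
Median log2 fold change of *Prdm16*SMKO over control for the macrophage members tested (orange circles) and for all genes tested (grey squares) under each of the 20 settings, the reported one first and the extreme libraries being *Prdm16*SMKO replicate 2 and control replicate 3. The median of the members lies between 0.32 and 0.93 and that of all genes between -0.09 and 0.11.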

How the data were processed

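The 6 libraries, 3 per group, were made from the polyadenylated part of total RNA of abdominal aorta. The deposited table holds TPM computed by the authors, given to 2 decimals, in 55426 gene rows. The submitters' processing notes name bcl2fastq, cutadapt 2.3, FastQC 0.11.8, STAR 2.7.8a, RSEM 1.3.3, MultiQC 1.7 and the build GRCm38, without their roles. TPM keep no read depth, so the depth of single libraries is unknown and no counting error or detection limit was computed. Gene positions come from GENCODE M21 (GRCm38). *Prdm16*SMKO was compared with control by limma 3.58.1 (R 4.3.3) on log2(TPM + 0.5), keeping genes whose mean reached 0.5 TPM, with a variance trend, two-sided tests and Benjamini-Hochberg adjustment over 15775 genes. The threshold was an adjusted p of 0.05. Fold changes on this scale understate the change of low genes. Single members also had an exact permutation test of the group means. The script was tested on simulated data. Tables and plots were made with matplotlib 3.10.9 and pandas 2.3.3 in Python 3.11.15, and the permutation tests with scipy 1.17.1.

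The members, the lists and the rules were chosen with earlier results of these data known. Values per library are given for members that passed the test, members whose groups do not overlap, *Cd68*, *Adgre1*, the 3 most abundant members and the 5 with the largest and the 5 with the smallest log2 fold change, and *Csf1r* was added after its values were seen. Of the other lists, genes that passed the test and, in 7 lists, the 3 with the smallest p are named. *Csf1*, *Ccl2*, *Il1a*, *Cebpa*, *Spn*, *Plac8*, *Vcan*, *Fn1*, *Ly6c2*, *Thy1*, *S100a9*, *Mmp9* and *Was* were added after their values were seen. Alternatives covered the pseudocount, the expression minimum, the scaling, the variance model, a replicate block and leaving out libraries.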

Additional observations from a re-analysis of the deposited data

How the results depend on the processing

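The 3 libraries per group and the unknown depth limit these results. The number of members that passed the adjusted threshold was 0 as reported and under 18 of 19 alternatives, including each library left out, and 1 under array weights (*Spi1*, log2 fold change 1.26, limma adjusted p = 0.0494, 1.76% of all genes higher by that rule), where control replicate 1 received a weight of 10.1 against 0.41 to 0.95 for the others. The median log2 fold change of the members was 0.70 as reported, 0.48 to 0.93 with each library left out, and 0.32 with both *Prdm16*SMKO replicate 2 and control replicate 3 left out, which was chosen after seeing the data, as was the rescaling without CT010467.1 and AY036118. The genes called numbered 56 as reported, 10 with no expression minimum, 153 with median-of-ratios size factors (61 higher, 92 lower), 129 with quantile normalization (46 higher, 83 lower), 33 with no variance trend, 112 with robust variances, 494 with array weights, 5 to 61 with each library left out, 8 with both libraries left out and 145 after the rescaling without CT010467.1 and AY036118 (65 higher). The labels did not say whether the replicate numbers pair the libraries. Deviations of same-numbered libraries correlated at -0.13, -0.11 and 0.02, and 0 of 3 *Prdm16*SMKO libraries correlated best with their own number. With 3 libraries per group these correlations cannot decide whether libraries were paired. With the replicate block 4 genes and 0 members were called. Signs changed for *Mrc1* under array weights (-0.057), for *Fcgr1* when control replicate 1 or *Prdm16*SMKO replicate 3 was absent (range -0.30 to 0.11 with each library left out), and with both libraries left out for *Aif1* (-0.0017), *Ms4a7* (-0.19) and *Mrc1* (-0.15). The cause of these changes was not tested.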

Other observations

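Of the mast cell list, 5 of 7 genes were tested, of which 4 were higher and 1 was lower. *Tpsb2*, a tryptase, was at 0.32, 0.79 and 0.60 TPM in control and at 2.26, 4.28 and 6.22 TPM in *Prdm16*SMKO (log2 fold change 2.08, limma adjusted p = 0.0638). *Mcpt4* and *Cma1*, chymases of connective tissue mast cells, had log2 fold changes of 1.81 and 1.46 without overlap of the groups (limma adjusted p-values of 0.109 and 0.278). In these 3 genes *Prdm16*SMKO replicate 3 was the highest library. *Cpa3*, the mast cell carboxypeptidase, had a log2 fold change of 0.86 with overlapping groups (limma adjusted p = 0.567). *Kit*, the stem cell factor receptor that mast cells share with other cells of the wall, was lower on the means (log2 fold change -0.96, limma adjusted p = 0.409) with overlapping groups. These genes were singled out after their values were seen.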
